A study of Oryza sativa Indica Group with 11 samples.

Results

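Dehydrins are hydrophilic proteins that stay soluble on drying and are held to protect membranes and other proteins in water-stressed plant cells. They form one class of the late embryogenesis abundant (LEA) proteins, which accumulate in maturing seeds and, in vegetative tissue, under drought, cold, salt or the hormone abscisic acid (ABA). ABA acts through receptors that inhibit clade A protein phosphatases, which frees SnRK2 kinases to activate bZIP transcription factors, and the rice RAB16 (responsive to ABA) genes are classical targets of this pathway. The 8 genes described here are the 4 RAB16 dehydrin genes of rice, the dehydrin genes rab25 and Dhn1, and the LEA genes LEA19 and Emp1. They were picked by name and locus, with no threshold on their values, and are 8 of the 17905 genes that the array's annotation names singly. Earlier results of these data were known when they were picked, so the shares given for them below are descriptive. The annotation of the array gives them 11 of the 57258 probe sets measured, a probe set being a group of oligonucleotides that together give 1 signal. RAB16A (LOC4350454, also called RAB21) has 2 probe sets, Dhn1 (LOC4330265) has 3, and RAB16B (LOC4350453), RAB16C (LOC4350452), RAB16D (LOC4350451), rab25 (LOC4326935), LEA19 (LOC4339480) and Emp1 (LOC4338499) have 1 each.

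RNA came from the crown and growing point of rice, the stem base with its shoot meristems, and each of the 11 samples was hybridised to 1 array after about 12 plants had been dissected for it. The groups are salt-stressed plants of IR29 (3 arrays), control plants of IR29 (2 arrays), salt-stressed plants of FL478 (3 arrays) and control plants of FL478 (3 arrays). IR29 is an indica rice sensitive to salt. FL478, which tolerates it, is an inbred line bred from IR29 and the landrace Pokkali, so each line is 1 genotype. The labels used here state no salt dose, length of treatment or plant age. The series describes the arrays of a group as biological replicates, and the p-values measure the spread between such samples in 1 experiment. In tissue of mixed cells, fewer cells of a type and less RNA per cell cannot be told apart.

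The deposited values are intensities on a linear scale, scaled by the authors so that the trimmed mean was 500.1 on every array. For log2 values, a pseudocount of 16 was added to each intensity before quantile normalization, and 24.4% to 30.4% of an array's probe sets had less than that. The arrays carry no detection calls in the table used here, so a signal near 16 is not shown to exceed background. IR29 control replicate 1 and FL478 control replicate 3 stood apart on the second principal component of all probe sets. They were at 95.15 and 67.47, against -53.08 to 9.20 for the other arrays. On the first component FL478 salt replicate 2 lay nearest to the IR29 arrays (-22.26, against -62.57 to -44.14 for the other 5 FL478 arrays). Of 11 meristem and growing point markers 10 had a median intensity over 100, OSH1 among them, while WOX4 was near background with intensities of 5.70 to 28.0. The summed intensity of 9 seed, embryo and endosperm markers overlapped between groups: it was 1614 to 2302 in IR29 salt plants and 1852 to 1875 in IR29 control plants, and 1680 to 1768 in FL478 salt plants and 1181 to 2291 in FL478 control plants. Among them the glutelin genes GLUA1, GLUA3, GLUB4 and GLUD1 had median intensities under 16. GLB1 gave the brightest signal, with a median of 1473, and weighed most in the sum. The markers were matched by symbol or synonym alone, and whether this GLB1 is a seed gene was not checked. The sum is therefore no firm measure of seed transcripts.

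The salt comparison within each line asked which of these transcripts differ between stressed and control plants. The RAB16 genes lie next to each other on 1 chromosome in the RefSeq annotation, with 2 other genes in the stretch, neither of them protein-coding. They code for closely related dehydrins, and whether their probe sets share signal was not tested. RAB16A had intensities of 548, 728 and 646 in IR29 salt plants and of 522 and 265 in IR29 control plants. In FL478 they were 1860.2, 1619 and 3977 in salt plants and 481, 877 and 617 in control plants. Every FL478 salt array was above all the others, and the IR29 arrays lay in the range of the FL478 controls or below it. In IR29 the salt arrays were above the controls in deposited intensity, by little for the nearest pair, and overlapped with them after normalization. The log2 change was 1.81 ± 0.34 in FL478 (SE, n = 3 and 3), a 3.51-fold difference, and 0.67 ± 0.38 in IR29 (SE, n = 3 and 2), a 1.59-fold one. The IR29 value rests on its 2 controls: it was 1.14 without replicate 1 of them and 0.21 without replicate 2.

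The second, dimmer RAB16A probe set was again highest in the FL478 salt arrays. Its intensities were 475, 435 and 497 in IR29 salt plants and 335 and 247 in IR29 control plants, and in FL478 1060.4, 921 and 1878 in salt plants and 385, 545 and 317 in control plants. Its log2 change was 1.53 ± 0.27 in FL478 and 0.60 ± 0.30 in IR29, and here the IR29 groups did not overlap on either scale. Over the 11 arrays the RAB16A probe sets had a Pearson correlation of 0.97 on the log2 scale.

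RAB16B had intensities of 132, 96.5 and 107 in IR29 salt plants and 29.8 and 22.4 in IR29 control plants. In FL478 it had 164, 216 and 596 in salt plants and 28.0, 41.6 and 103 in control plants. In both lines all salt arrays were above all controls, and FL478 salt replicate 3 was far above the other 10 arrays. The log2 change was 2.07 ± 0.45 in FL478 and 1.68 ± 0.50 in IR29, the second from control values near the pseudocount, on which its size depends: it was 1.01 to 2.16 over 20 other settings. The FL478 value moved too, from 1.53 to 2.42 over 20 other settings. Leaving out single arrays gave nearly all of that range, 1.54 to 2.42, so its size depends on single arrays. Its controls were as low as 28.0 and 41.6.

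RAB16C had intensities of 149, 154 and 184 in IR29 salt plants and 58.9 and 64.6 in IR29 control plants, and in FL478 396, 271 and 462 in salt plants and 63.6, 155 and 72.4 in control plants. The salt arrays were again above the controls of their line in both lines. The log2 change was 1.80 ± 0.33 in FL478 and 1.25 ± 0.37 in IR29.

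RAB16D, the fourth gene of the cluster, stayed near background. Its intensities were 11.3, 6.90 and 25.7 in IR29 salt plants and 33.3 and 8.10 in IR29 control plants, and 44.9, 14.0 and 11.1 in FL478 salt plants and 8.00, 11.8 and 14.2 in FL478 control plants. Of the 11 arrays 8 were under 16, and no group stood apart from another. Its log2 changes of 0.38 ± 0.37 in FL478 and -0.076 ± 0.41 in IR29 were about as large as their errors or smaller.

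**Figure D1:**
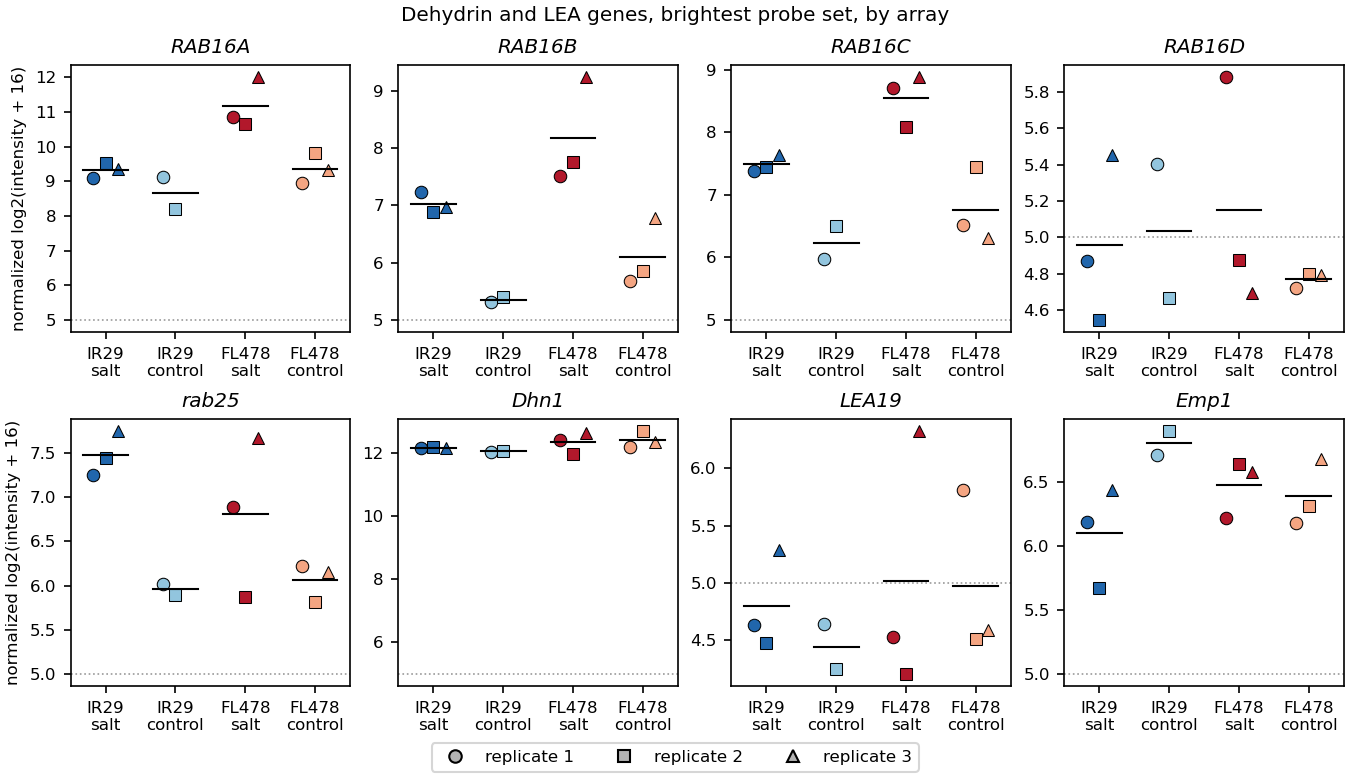
Normalized log2(intensity + 16) of the brightest probe set of each of the 8 genes (y axis, a scale of its own in each panel) in IR29 salt, IR29 control, FL478 salt and FL478 control plants; each point is 1 array, shaped by replicate number, bars are group means, and the dotted line marks an intensity equal to the pseudocount of 16. RAB16A, RAB16B and RAB16C are highest in the 3 FL478 salt arrays, rab25 is high in the 3 IR29 salt arrays and in FL478 salt replicate 3, and RAB16D and LEA19 lie near the dotted line in most arrays.

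The dehydrin gene rab25 had a larger value in IR29 than in FL478, and that difference between the lines did not pass the test. Its intensities were 133, 154 and 202 in IR29 salt plants and 61.0 and 37.1 in IR29 control plants, so that the groups were apart. In FL478 they were 103, 46.1 and 197 in salt plants and 47.7, 40.0 and 63.8 in control plants, and salt replicate 2 lay within the control range. The log2 change was 1.52 ± 0.47 in IR29, a 2.87-fold difference, and 0.75 ± 0.42 in FL478. Without FL478 salt replicate 2, the array nearest to IR29 in the principal components, the FL478 value was 1.22, and without FL478 salt replicate 3 it was 0.32.

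Dhn1, an acidic dehydrin gene also known as LIP9, gave a bright and even signal. Its intensities were 4575, 4658 and 4573 in IR29 salt plants and 4244 and 4323 in IR29 control plants. In FL478 they were 5513, 3853 and 6039.6 in salt plants and 4743, 6673 and 5165 in control plants. The IR29 salt arrays lay just above the IR29 controls, and the FL478 groups overlapped. The log2 change was -0.077 ± 0.16 in FL478 (95% interval -0.43 to 0.28) and 0.12 ± 0.18 in IR29 (95% interval -0.28 to 0.52). The other probe sets annotated to Dhn1 were dim, with intensities of 3.10 to 47.8 and of 1.70 to 35.1 over all arrays. They did not follow the bright one: their Pearson correlations with it over the 11 arrays were -0.13 and -0.18. The second of them had a log2 change of -0.77 ± 0.34 in FL478, with a limma adjusted p of 0.910.

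The LEA genes LEA19 and Emp1 did not pass the test in either line. LEA19, a group 3 LEA gene also known as OsLEA3-1, had intensities of 7.20, 5.80 and 21.2 in IR29 salt plants and 11.3 and 2.40 in IR29 control plants, and of 7.40, 2.80 and 73.1 in FL478 salt plants and 32.1, 6.70 and 9.70 in FL478 control plants. It was near background in every group except for single arrays, the highest being FL478 salt replicate 3, and its log2 changes were 0.050 ± 0.52 in FL478 and 0.36 ± 0.59 in IR29. Emp1 codes for an Em protein, a LEA protein of the maturing embryo. Its intensities were 49.0, 33.1 and 67.7 in IR29 salt plants and 104 and 91.7 in IR29 control plants, with every salt array below both controls. In FL478 they were 60.8, 92.2 and 89.9 in salt plants and 46.3, 62.8 and 95.6 in control plants, which overlapped. The log2 change was 0.088 ± 0.33 in FL478 and -0.70 ± 0.37 in IR29.

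None of the 11 probe sets passed an adjusted p of 0.05 in either line in limma with Benjamini-Hochberg adjustment over all 57258 probe sets, where 0.00873% passed in FL478 and 0.00524% in IR29. The FL478 adjusted p was 0.488 for RAB16A, 0.505 for RAB16B and 0.488 for RAB16C in limma, and the IR29 adjusted p was 0.754, 0.411 and 0.410 for the same genes. For rab25 limma gave an adjusted p of 0.935 in FL478 and 0.424 in IR29. At an unadjusted p under 0.05 the FL478 count was 3 of the 8 genes higher by their brightest probe set (RAB16A, RAB16B and RAB16C), against 2.81% of all probe sets, and 1 dim Dhn1 probe set was lower, against 2.61%. In IR29 it was also 3 of 8 (RAB16B, RAB16C and rab25), against 3.6% of all probe sets. Overlap was counted on the normalized log2 values, for the 8 genes as for all probe sets. In FL478 every salt array was above every control for 3 of the 8 genes, against 5.49% of all probe sets. In IR29 this held for 4 genes (RAB16B, RAB16C, rab25 and Dhn1), against 10.8% of all probe sets, and Emp1 had every salt array lower, as had 12.7% of all probe sets. In deposited intensities RAB16A met this condition in IR29 too. By their brightest probe sets, RAB16B and RAB16C had every salt array above the controls in both lines. The second RAB16A probe set had this pattern too. These were 3 of the 11 probe sets, against 0.802% of all probe sets. The median log2 change of the 8 genes was 0.56 in FL478, where that of all probe sets was 0.0036, and 0.51 in IR29, where that of all probe sets was -0.011.

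Averaged over both lines, the log2 change was 1.52 ± 0.25 for RAB16C (limma adjusted p = 0.0922), 1.87 ± 0.34 for RAB16B (limma adjusted p = 0.127) and 1.24 ± 0.26 for RAB16A (limma adjusted p = 0.194). No probe set of the 8 genes passed here either, while 0.0332% of all probe sets did. At an unadjusted p under 0.05, 4 of the 8 genes were higher, against 3.75% of all probe sets. The value for rab25 was 1.13 ± 0.31 with a limma adjusted p of 0.353, and that for Dhn1 was 0.019 ± 0.12 (95% interval -0.25 to 0.29). RAB16C passed in 2 of 19 other settings: its limma adjusted p was 0.0455 among probe sets with a mean log2 value of at least 6, and 0.0363 without FL478 control replicate 2.

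**Figure D2:**
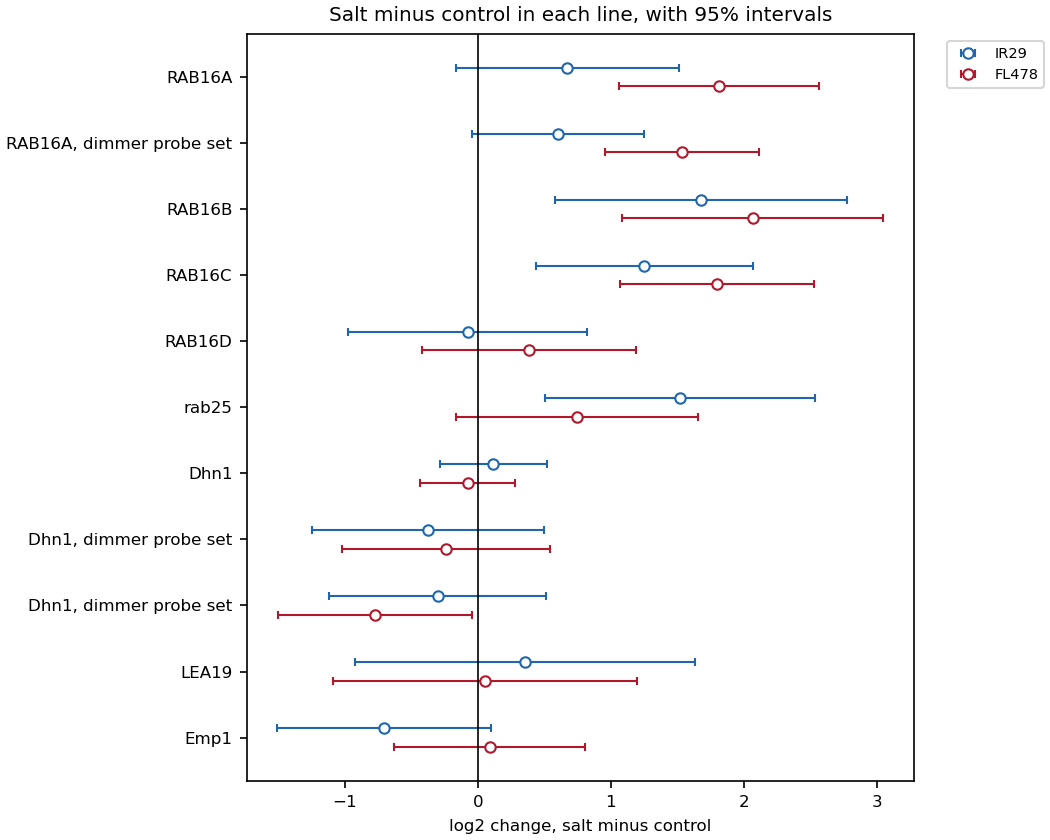
Log2 change, salt minus control (x axis), of the 11 probe sets of the 8 genes in IR29 and in FL478, with 95% intervals from limma; open circles have an adjusted p of 0.05 or more. The unadjusted intervals of RAB16A, RAB16B and RAB16C in FL478 and of RAB16B, RAB16C and rab25 in IR29 lie above 0, and those of the bright Dhn1 probe set are the narrowest and span 0.

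Some measures of the samples moved with salt. The summed intensity of 4 xylem markers, the cellulose synthase genes of the secondary wall CESA4, CESA7 and CESA9 with IRX9, was 7705 to 10260 in IR29 salt plants and 4643 to 4838 in IR29 control plants, and 6570 to 7715 in FL478 salt plants and 5625 to 6023 in FL478 control plants. All 4 had median intensities over 100. In IR29 each of them had every salt array above both controls. In FL478 this separation from the controls held for CESA4 and CESA7 only. There CESA9 and IRX9 overlapped between salt and control plants, with log2 changes of 0.24 and -0.085, so the FL478 sum does not stand for each marker. The cyclophilin control, as log2 of its 3' over its 5' probe set, was 0.99 to 1.15 in IR29 salt plants and 0.70 to 0.90 in IR29 control plants, and overlapped in FL478 with 0.69 to 1.22 in salt plants and 0.41 to 0.87 in control plants. The actin control was 0.66 to 0.79 in IR29 salt plants and 0.48 to 0.50 in IR29 control plants, and overlapped in FL478 with 0.70 to 1.03 in salt plants and 0.60 to 0.90 in control plants. The GAPDH control overlapped in both lines. The part of these measures in the values of the dehydrin genes was not tested.

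The comparison of the lines asked whether these transcripts differ between the sensitive and the tolerant genotype, within each treatment and in their response. Under salt, RAB16A was lower in IR29 than in FL478. The log2 difference, IR29 minus FL478, was -1.85 ± 0.34 (95% interval -2.60 to -1.10), a level 3.60-fold lower, with a limma adjusted p of 0.0160. The highest IR29 salt array had 728 and the lowest FL478 salt array 1619, so the groups were well apart. The second RAB16A probe set gave -1.36 ± 0.27 with a limma adjusted p of 0.0210, and its call was lost in 6 of 19 other settings (limma adjusted p of up to 0.0915): with no trend in the variance prior, and without FL478 salt replicate 1 or 3 or any one of the IR29 salt arrays. RAB16A was the only one of the 8 genes to pass, and 0.908% of all probe sets passed as lower in IR29. Bright probe sets passed more often: with only those of a mean log2 value of at least 6, 588 of 29266 passed as lower. The call of the brighter probe set was lost in 4 of 20 other settings, in which the limma adjusted p was 0.0501 without FL478 salt replicate 3, 0.0901 without IR29 salt replicate 1, 0.0585 without IR29 salt replicate 3 and 0.0604 with no trend in the variance prior.

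RAB16B and RAB16C were also lower in all IR29 salt arrays than in all FL478 salt arrays, as were 9.46% of all probe sets, but did not pass. With RAB16A they made 3 of the 8 genes lower at an unadjusted p under 0.05, against 5.59% of all probe sets. Their log2 differences were -1.14 ± 0.45 (limma adjusted p = 0.340) and -1.07 ± 0.33 (limma adjusted p = 0.189). For RAB16B the difference was -0.61 without FL478 salt replicate 3. The value of rab25 had the opposite sign, 0.67 ± 0.42 with a limma adjusted p of 0.612, and Dhn1 and Emp1 had -0.17 ± 0.16 and -0.38 ± 0.33.

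In control plants none of the 8 genes passed between the lines, where 0.814% of all probe sets did. The log2 difference, IR29 minus FL478, was -0.70 ± 0.38 for RAB16A, -0.75 ± 0.50 for RAB16B and -0.52 ± 0.37 for RAB16C, with limma adjusted p-values of 0.653, 0.741 and 0.766. On the normalized scale RAB16B and Dhn1 were lower in both IR29 controls than in all FL478 controls, as were 11.1% of all probe sets, and Emp1 was higher, as were 11.5%. In deposited intensities this held for Dhn1 alone, and the controls of RAB16B and of Emp1 overlapped. The IR29 controls of RAB16A lay apart from each other, at 522 and 265, and without one or the other of them the difference between the lines was -0.24 or -1.17.

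**Figure D3:**
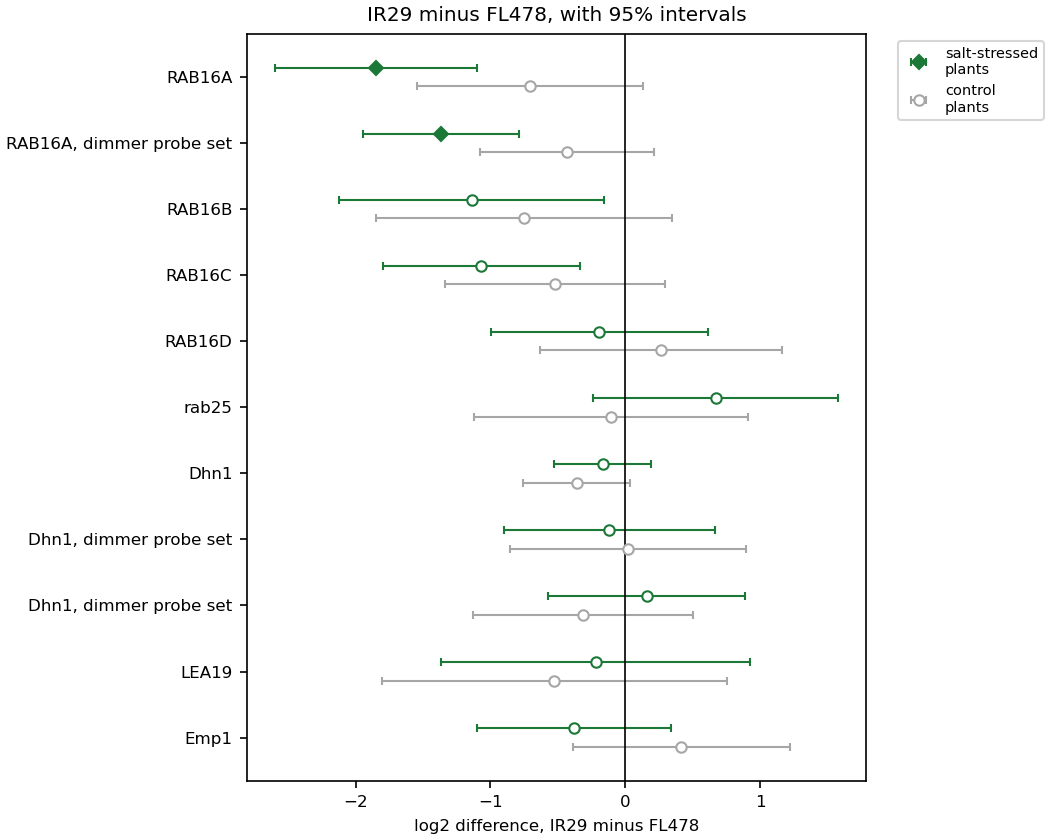
Log2 difference, IR29 minus FL478 (x axis), of the 11 probe sets of the 8 genes in salt-stressed and in control plants, with 95% intervals from limma; filled diamonds have an adjusted p under 0.05. The RAB16A probe sets under salt, at -1.85 and -1.36, are the filled ones.

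The difference between the salt responses, IR29 minus FL478, was -1.14 ± 0.52 for RAB16A (95% interval -2.27 to -0.018), with an unadjusted limma p of 0.0470 and a limma adjusted p of 0.916. It was -0.39 ± 0.68 for RAB16B (95% interval -1.86 to 1.08), -0.55 ± 0.50 for RAB16C (95% interval -1.64 to 0.55) and 0.78 ± 0.63 for rab25 (95% interval -0.59 to 2.14). Single arrays moved these values: with 1 array left out in turn, that of RAB16A ran from -1.60 without IR29 control replicate 2 to -0.67 without IR29 control replicate 1. That of RAB16B turned to 0.14 without FL478 salt replicate 3, that of RAB16C ran from -0.89 to -0.28 and that of rab25 from 0.30 to 1.21. In limma 0 of the 57258 probe sets (0%) passed, with 1543 higher and 1516 lower at an unadjusted p under 0.05, so a different response of the lines was not shown for any of these genes. At an unadjusted p under 0.05, RAB16A was the 1 gene of 8 with a smaller value in IR29, against 2.65% of all probe sets. These intervals leave room for differences of more than 1 log2 unit in each of the 4 genes.

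**Figure D4:**
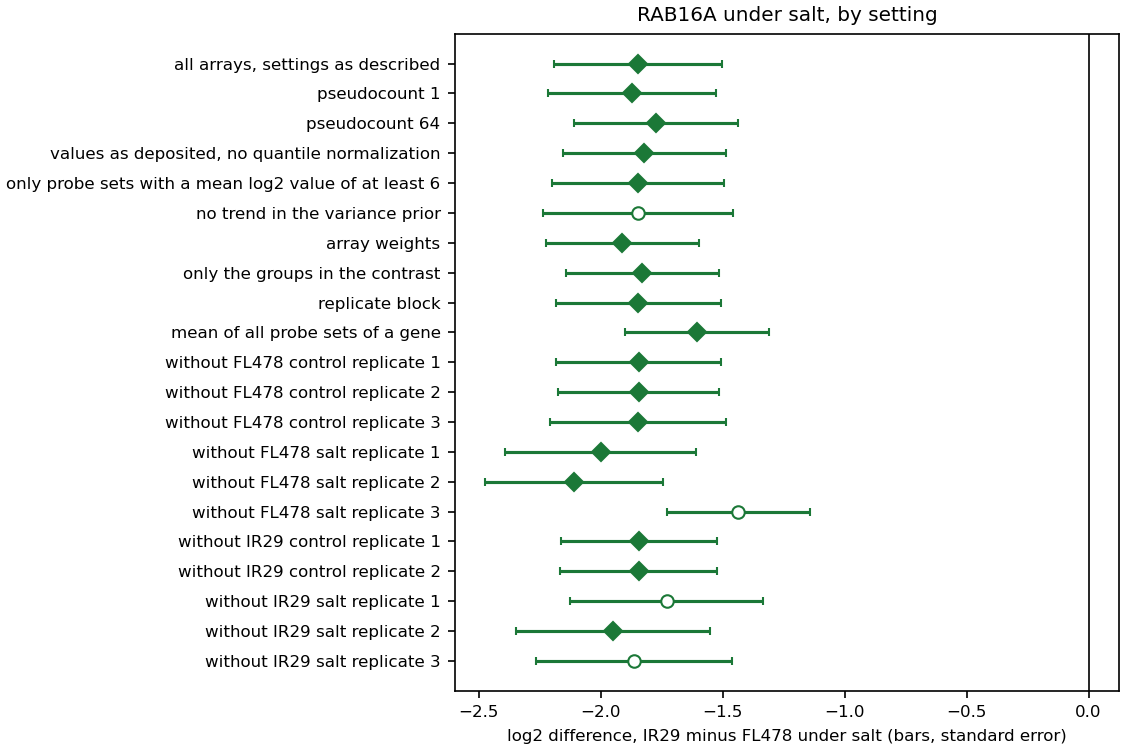
Log2 difference of RAB16A between IR29 and FL478 under salt (x axis) in the reported fit and in 20 other settings, 11 of which leave out 1 array each; bars are standard errors, filled diamonds have an adjusted p under 0.05 and open circles do not. The difference stays between -2.11 and -1.44, and 16 of the 20 other settings have a filled symbol.

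The order of the group means also differed between the genes. RAB16A was highest in FL478 salt plants, at 11.18 ± 0.72 on the log2 scale (SD, n = 3), followed by FL478 controls at 9.36 ± 0.42 (SD, n = 3), IR29 salt plants at 9.33 ± 0.23 (SD, n = 3) and IR29 controls at 8.66 ± 0.66 (SD, n = 2). The middle pair did not differ beyond its spread. RAB16B and RAB16C shared another order, with FL478 salt plants first, then IR29 salt plants, FL478 controls and IR29 controls. For RAB16B these means were 8.17 ± 0.93, 7.03 ± 0.19, 6.10 ± 0.59 and 5.35 ± 0.066, and for RAB16C 8.55 ± 0.42, 7.49 ± 0.13, 6.75 ± 0.60 and 6.24 ± 0.37 (SD). For rab25 IR29 salt plants came first, at 7.48 ± 0.25, then FL478 salt plants at 6.81 ± 0.90, FL478 controls at 6.06 ± 0.22 and IR29 controls at 5.96 ± 0.086 (SD), and the controls did not differ beyond their spread.

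The FL478 salt arrays had the largest SD of the 4 groups for every one of the 8 genes except RAB16C and Emp1. Replicate 3 was the highest of them for 6 of the 8 genes (RAB16A, RAB16B, RAB16C, rab25, Dhn1 and LEA19), and replicate 2 the lowest for 5 (RAB16A, RAB16C, rab25, Dhn1 and LEA19). Over the 11 arrays, which share the 4 groups, the Pearson correlations were 0.85 between RAB16A and RAB16B, 0.86 between RAB16A and RAB16C and 0.85 between RAB16B and RAB16C. After the group means were removed they were 0.54, 0.43 and 0.045. The correlation of RAB16A with rab25 was 0.35 over the arrays and 0.58 within groups. Larger within-group values were 0.83 for RAB16C with Dhn1, 0.81 for rab25 with LEA19 and 0.72 for RAB16A with Dhn1. LEA19 was near background in most arrays. The lowest was -0.43, for RAB16B with RAB16D.

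Among 1975 other genes with a symbol, the 8 most like the mean profile of the RAB16 genes over the 11 arrays had Pearson correlations of 0.79 to 0.89 with it. RAB16D, near background, has equal weight in this profile, although its correlations with RAB16A, RAB16B and RAB16C were 0.17, 0.026 and 0.22. FL478 salt replicate 1 was highest in the profile, at 1.32, whereas RAB16A, RAB16B and RAB16C were highest in replicate 3. How far the 8 genes named next depend on that weight was not tested. These genes were CLPB1, which codes for a chaperone of the HSP100 family, DPE1, HKT1;5, ACA5, CBL3, LHP1, OsPIP1;3 and MADS2. CLPB1 had the highest value, 0.89, and none was over 0.9. HKT1;5 codes for a transporter that takes sodium back out of the xylem sap, and had a correlation of 0.83. Its log2 change was 2.49 in FL478 and 2.22 in IR29, and its difference between the lines under salt, IR29 minus FL478, was -1.17. The smallest limma adjusted p of HKT1;5 over the salt contrasts (each line and their average) was 0.00522. For the other named genes this smallest value was 0.324 to 0.769, so none of them passed.

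The ABA pathway around these genes was described with a list of 27 other genes, matched by name and chosen with earlier results of these data known. It holds 1 ABA synthesis gene, 2 breakdown genes, 1 receptor, 7 clade A phosphatases, 10 SnRK2 kinases, 5 bZIP and B3 factors and SALT. A role in ABA signalling was not checked for each gene, among them the B3 factors LFL1 and IDEF1. BZIP23, a bZIP transcription factor of ABA signalling, rose with salt over both lines by 1.02 ± 0.12 on the log2 scale (limma adjusted p = 0.0125), a call lost in 2 of 19 other settings. Its intensities were 1788 to 2086 in IR29 salt plants and 702 to 744 in IR29 control plants, and 1306 to 1716 in FL478 salt plants and 760.2 to 1125 in FL478 control plants. PP2C08, a clade A phosphatase, rose by 1.46 ± 0.20 over both lines (limma adjusted p = 0.0390). Its intensities were 458 to 581 in IR29 salt plants and 122 to 181 in IR29 control plants, and 457 to 634 in FL478 salt plants and 158 to 340.3 in FL478 control plants. Salt and control arrays did not overlap for either gene in either line, but the call of PP2C08 was lost in 10 of 19 other settings, with a limma adjusted p of up to 0.171. PP2C30, another clade A phosphatase, had a mean log2 change of 1.44 ± 0.23 with a limma adjusted p of 0.0824.

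These 2 genes were the only ones of the 27 to pass over both lines, where 0.0332% of all probe sets passed, and none passed in either line alone. BZIP23 did pass in IR29 alone in 6 of 20 other settings, with a limma adjusted p of 0.0428 to 0.0492 in them, against 0.0739 in the fit as described. At an unadjusted p under 0.05, 6 of the 27 genes were higher and 0 lower in FL478, where 2.81% of all probe sets were higher and 2.61% lower. In IR29, 7 of the 27 were higher and 1 lower, where 3.6% of all probe sets were higher and 3.77% lower. The median log2 change of the 27 was 0.095 in FL478, where that of all genes was -0.0021, and 0.31 in IR29, where that of all genes was -0.0015. For the 7 phosphatases it was 0.15 in FL478 and 0.99 in IR29, and for the 10 SnRK2 kinases 0.038 and 0.13. PP2C30 had a log2 change of 0.83 ± 0.30 in FL478 and 2.05 ± 0.34 in IR29, and BZIP23 had 0.69 ± 0.16 and 1.35 ± 0.17. For both genes the value was larger in IR29, while that of RAB16A was larger in FL478. The difference between the responses, IR29 minus FL478, was 1.22 ± 0.46 for PP2C30 and 0.66 ± 0.23 for BZIP23, with limma adjusted p-values of 0.916 and 0.888, so neither passed.

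**Figure D5:**
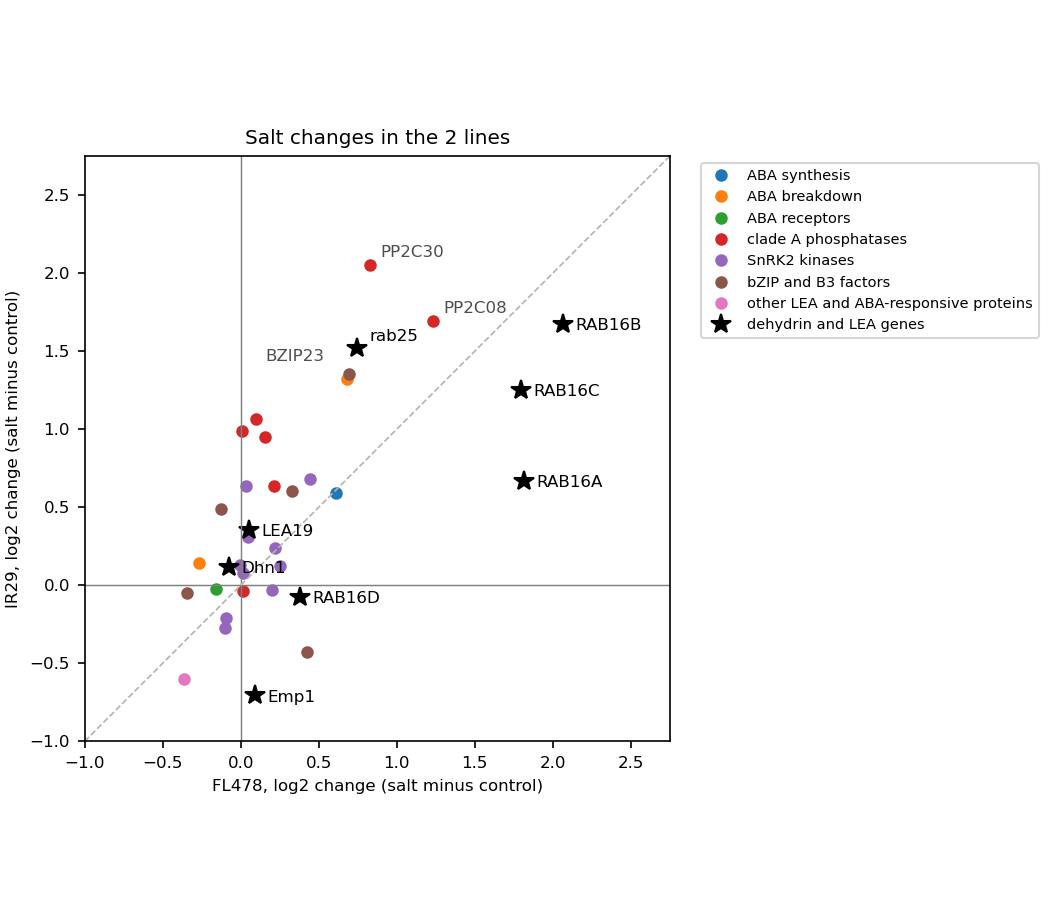
Log2 change, salt minus control, in FL478 (x axis) and in IR29 (y axis) of the 8 dehydrin and LEA genes and of the 27 other genes of the ABA pathway list, 1 point per gene, with the line of equal change. RAB16A, RAB16B and RAB16C lie below the line, and rab25, PP2C30, PP2C08 and BZIP23 lie above it.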

How the data were processed

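Total RNA of 11 samples was hybridised to 1 Affymetrix rice array each, per the labels. The authors deposited a linear intensity for each probe set on each array. The submitters' processing notes name GCOS 1.2, while the algorithm and the genome build were not stated in what was used here. The values had been scaled per array, to an equal trimmed mean (2% left out at each end).

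After removal of 123 control probe sets, 57258 were transformed to log2(intensity + 16), quantile normalized and fitted in R 4.3.3 with limma 3.58.1, using 4 group means, with a variance prior that follows the mean. The 6 contrasts were salt against control in each line and averaged over both, the difference between these responses, and IR29 against FL478 under salt and in control plants. P-values are two-sided with Benjamini-Hochberg adjustment over every probe set, and called under 0.05. Errors of log2 changes are standard errors, and intervals cover 95% for 1 probe set without adjustment. Scripts were tested on simulated data. The number of arrays limits the precision.

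Probe sets were named through the annotation table of the array, and each gene is described first by its brightest probe set. The genes and lists were chosen with earlier results of these data known. Named pathway genes are those that passed in any contrast or had one of the 3 largest salt changes. The most similar genes are the 8 with a symbol, with a mean log2 value of at least 7, that had the highest Pearson correlation with the mean standardised profile of RAB16A to RAB16D. The neighbours of the RAB16 genes come from the RefSeq annotation, whose assembly may not be the build of the array, so no coordinates are given. Alternatives were other pseudocounts, the values as deposited, a filter on dim probe sets, no trend in the prior, array weights, the replicate number as a block, the groups of a contrast alone, the mean of a gene's probe sets, and each array left out in turn. Replicate numbers were not treated as pairs in the reported fit, and whether they mark shared batches was not settled.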

Additional observations from a re-analysis of the deposited data

How the results depend on the processing

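Of 1840 values recomputed under the alternatives, 1765 kept their direction and their side of the threshold or moved by less than the replicate spread, 38 reversed, 22 lost a call, 9 gained one and 6 counts moved. No gene of the 8 passed in either line alone, in control plants between the lines or in the difference of the responses under any alternative run. Over both lines the count passing was 1 with the filter on dim probe sets, and 0 to 1 with single arrays left out. Between the lines under salt it was 0 with no trend in the variance prior and 0 to 1 with single arrays left out. Of 15 same-numbered pairs 2 had a correlation of deviations over 0.1 (range -0.051 to 0.13), and 5 of 11 arrays correlated best with their own number. With 2 or 3 arrays in a group this cannot exclude a batch shared by replicate number. With the replicate number as a block, the probe sets passing went from 5 to 7 in FL478, 3 to 14 in IR29 and 19 to 40 over both lines. They went from 466 to 381 between the lines in control plants and from 992 to 939 under salt. With the replicate block RAB16A under salt was -1.85 with a limma adjusted p of 0.0215, and the count of the 8 genes passing was the same in every contrast. BZIP23 lost its call over both lines with no trend in the prior (limma adjusted p = 0.127) and without IR29 salt replicate 1 (limma adjusted p = 0.0603). The averaged response and the difference of the responses need all 4 groups, so the fit on the groups of a contrast alone was not run for them, and the filter left out RAB16D and LEA19, so no median was taken there.

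Direction reversed for these values. LEA19 in FL478 was -0.22 with a pseudocount of 1 and -0.068 with array weights. Dhn1 was -0.19 in IR29 and -0.28 over both lines with the mean of its probe sets, and -0.0065 over both lines as deposited. In control plants a dim Dhn1 probe set was -0.027 with a pseudocount of 64, and rab25 was 0.097 with the replicate block. With single arrays left out, the FL478 values ran from -0.60 to 0.47 for LEA19, -0.016 to 0.23 for Emp1, -0.22 to 0.11 for Dhn1 and -0.50 to 0.24 for its first dim probe set. In IR29 they ran from -0.45 to 0.29 for RAB16D and -0.73 to 0.12 for the second dim Dhn1 probe set. Over both lines they ran from -0.054 to 0.11 for Dhn1, -0.032 to 0.33 for RAB16D and -0.12 to 0.42 for LEA19. The differences of the responses ran from -0.61 to 0.12 for the first dim Dhn1 probe set, -0.11 to 0.95 for LEA19 and -0.73 to 0.14 for RAB16B. In control plants they ran from -0.24 to 0.49 and -0.73 to 0.11 for the dim Dhn1 probe sets and -0.10 to 0.64 for RAB16D. Under salt they ran from -0.44 to 0.17 for RAB16D, -0.62 to 0.43 for LEA19 and -0.0071 to 0.27 for the second dim Dhn1 probe set. The causes were not tested. Over all probe sets the number passing was 5 in FL478 (0 to 8 under the alternatives), 3 in IR29 (0 to 65), 19 over both lines (2 to 43), 0 for the difference (0 to 21), 466 between the lines in control plants (148 to 560) and 992 under salt (543 to 1660).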
